A study of Homo sapiens with 9 samples.

Results

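The translation initiation and elongation factors are described here at the RNA level in MIA PaCa-2 cells, an established human pancreatic cancer cell line. The members are the protein-coding genes whose names start with EIF or EEF, without EEF1E1, which belongs to the tRNA synthetase complex, without the antiviral kinase gene EIF2AK2 and without readthrough genes, whose names hold a hyphen. This rule gave 68 genes of the 58735 in the count table, 55 of them EIF and 13 EEF. They were sorted by complex into eIF1 and eIF1A, eIF2, eIF2B, the eIF2 kinases, EIF2A and EIF2D, eIF3, eIF4, the eIF4E-binding proteins (4E-BPs), a group of eIF5, eIF5B and eIF6, eIF5A, the elongation factors and the enzymes that modify them.

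The cells, wild type in genotype, were kept for 24 h in one of 3 treatments: 0.1% DMSO as the vehicle, the ERK1/2 inhibitor SCH772984 at 1 μM, or the TBK1 and IKKε inhibitor called compound 1 at 1 μM. Each treatment has 3 libraries of bulk RNA. The samples all come from this 1 cell line, and the labels do not say whether the libraries of a treatment came from separate cultures, so the p-values measure only the spread between these libraries, which may be technical. Both inhibitor comparisons use the same 3 DMSO libraries. In bulk RNA, fewer cells and less RNA per cell cannot be told apart, and a level is always relative to the other RNA of the library.

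Protein synthesis starts when eIF2 brings the initiator tRNA to the small ribosomal subunit and eIF3 holds that subunit together with the other factors. The eIF4F complex, made of the cap-binding protein eIF4E, the scaffold eIF4G and the helicase eIF4A, recruits the mRNA, and 4E-BPs block it by holding eIF4E. After the large subunit has joined, eEF1A delivers aminoacyl-tRNAs and eEF2 moves the ribosome along the mRNA. Many mRNAs of the translation machinery begin with a C followed by a run of pyrimidines, the feature of so-called TOP mRNAs, whose translation depends on mTOR.

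Total counts were 9464432 to 10286223 per library with DMSO, 9652741 to 9840769 with compound 1 and 11056977 to 13887859 with SCH772984. The members took 2.88% to 2.96% of the counts with DMSO, 2.84% to 2.95% with compound 1 and 2.64% to 2.81% with SCH772984. Mitochondrially encoded genes took 3.33% to 3.98%, 3.41% to 3.92% and 6.23% to 7.52% in the same order, and the part of this shift in the results with SCH772984 was not tested. Of 9 output genes of the ERK pathway, 8 were tested with SCH772984 and all 8 fell, and the summed counts of the 9 were 6986 to 7576 with DMSO, 7114 to 7351 with compound 1 and 2257 to 2893 with SCH772984. Of 5 epithelial markers, KRT8, KRT18 and KRT19 were expressed, EPCAM had 0 counts in all 9 libraries and CDH1 had 0 to 5. The summed counts of these 5 were 31696 to 36418 with DMSO, 28468 to 34768 with compound 1 and 13403 to 19057 with SCH772984, where KRT8 (-1.69 on the log2 scale) and KRT18 (-2.40) fell and KRT19 (0.11) was not called, and the part of this in the members' fall was not tested. Of 6 markers of other cell types, PTPRC, PRSS1 and INS had 0 counts in every library, and the summed counts of all 6 were 1 to 4 with DMSO, 1 to 4 with compound 1 and 28 to 48 with SCH772984, where COL1A1 gave 28 to 48 of these counts. The part of this rise in the results was not tested.

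The sequences shown belong to 2 features by which the members are described further on, the first bases of the transcript and a motif before it. RefSeq transcription start entries (GRCh38.p14) were found for 54 of the 68 members. A pyrimidine start, taken as a C at the first base and C or T at the next 4 or more, was present at 1 or more entries of 13 of these 54 members (24.1%), against 6.36% of the 14896 protein-coding genes with an entry. The first 20 bases, 5′ to 3′, are given for the 6 of the 13 that were not called lower with SCH772984 and for the 3 that fell most, with the opening run of C and T in capitals. Of the 13, EEF1B2 and EIF2S3B also have an entry without such a start, and the starts used in MIA PaCa-2 cells were not measured and may differ from RefSeq's.
EEF1A1 (chr6:73521013-73521032, minus strand): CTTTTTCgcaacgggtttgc
EEF2 (chr19:3985444-3985463, minus strand): CTCTTCCgccgtcgtcgccg
EIF3F (chr11:7987337-7987356, plus strand): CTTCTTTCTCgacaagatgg
EIF4B (chr12:53006456-53006475, plus strand): CTTTTgcgttctctttccct
EIF4A2 (chr3:186783577-186783596, plus strand): CTTTTCagtcgggcgctgag
EIF2D (chr1:206612446-206612465, minus strand): CCTTTTCgcggccgggcccc
EIF3M (chr11:32583831-32583850, plus strand): CTTTTCCggtcggcgtggtc
EIF2A (chr3:150546787-150546806, plus strand): CTCTTTCCgggacaacatgg
EIF3K (chr19:38619188-38619207, plus strand): CTCTTCCTgttcccgtcctt

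The letters CACGTG, an E-box of the kind that MYC binds, read the same on both strands and were present in the windows, from 250 bases before to 50 after the start, of 14 of the 54 members (25.9%), against 11.02% of the protein-coding genes with an entry. EIF4E and EIF4G1, which encode the cap-binding protein and the scaffold of eIF4F, each hold CACGTG in the 250 bases before a start, shown 5′ to 3′ with CACGTG in capitals. EIF4G1 has 3 start entries, and the windows of the other two hold 0 CACGTG. A match describes these letters only and is neither a bound site nor a cause.
EIF4E (chr4:98929134-98929383, minus strand): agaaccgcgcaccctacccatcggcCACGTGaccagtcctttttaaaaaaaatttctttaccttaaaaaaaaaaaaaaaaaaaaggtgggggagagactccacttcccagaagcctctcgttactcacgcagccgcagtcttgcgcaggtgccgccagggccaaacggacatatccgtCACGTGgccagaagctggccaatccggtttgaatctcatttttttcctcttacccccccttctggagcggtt
EIF4G1 (chr3:184314356-184314605, plus strand): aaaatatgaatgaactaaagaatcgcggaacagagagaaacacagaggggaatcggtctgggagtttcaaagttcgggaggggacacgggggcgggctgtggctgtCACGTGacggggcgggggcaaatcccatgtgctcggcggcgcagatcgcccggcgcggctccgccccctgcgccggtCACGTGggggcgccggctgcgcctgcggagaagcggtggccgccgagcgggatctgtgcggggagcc

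In each comparison 63 of the 68 members had enough counts to be tested. EEF1G, EIF1AY, EIF4E1B, EIF4E3 and EIF4EBP3 did not. EEF1G, a subunit of the eEF1 exchange complex, had 0 counts in every library, and 99.9% of its exonic bases at chr11:62559601-62574086 lie inside the annotated gene AP002990.1, which had 12 to 27 counts. EIF4E3, an eIF4E relative, had 0 to 6 counts, and EIF4EBP3 had 1 to 6, with 73.4% of its exonic bases inside the readthrough gene ANKHD1-EIF4EBP3. Whether counting used the strand, and how reads in more than 1 gene were treated, are not given in the sources used here, so these genes are uncertain.

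At the level of DMSO, given as CPM per kb (counts scaled to the TMM-normalised library size and to the kilobases of exons), the elongation factors EEF1A1 (1814 ± 54.3, SD, n = 3) and EEF2 (1294 ± 23.4) stood far above the other members. EIF5A and EIF4H (245.8 ± 6.56) followed, and 55 of the 63 tested members lay below EIF2S3 at 123.5 ± 3.92. By this measure, which divides by all annotated exonic bases of a gene, the subunits of a complex were not at equal levels. In eIF3, without EIF3C and EIF3CL, the 12 subunits ranged 21.0-fold, from EIF3F at 9.98 ± 0.180 to EIF3I at 209.8 ± 6.54, whereas the 5 subunits of eIF2B ranged 2.55-fold, from EIF2B2 at 6.03 ± 0.558 to EIF2B5 at 15.4 ± 1.17. In eIF4F the scaffold EIF4G1 was at 209.7 ± 5.52 and the cap-binding EIF4E at 4.41 ± 0.151. These differences depend on annotated length, which was 1725 bases for EIF3I and 9431 for EIF3F, at mean CPM of 362.0 and 94.08. EIF4G1 had 8257 bases and EIF4E 14067, at mean CPM of 1732 and 61.97. The part of annotated length in the ranges was not tested.

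**Figure D1:**
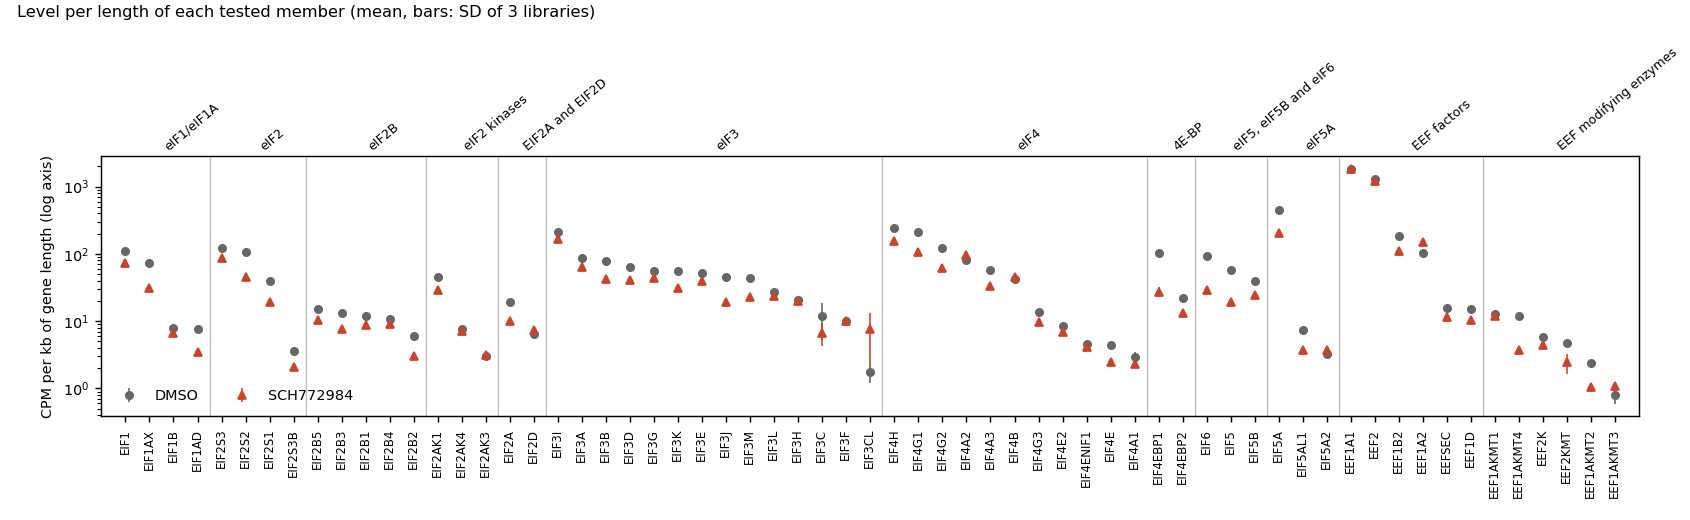
Mean level of each tested member in CPM per kb of gene length on a log axis, with DMSO as grey circles and SCH772984 as red triangles, and bars for the SD of 3 libraries. EEF1A1 and EEF2 stand highest, and the triangles of the 9 eIF2 and eIF2B genes lie below their circles.

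Most of the translation factors fell with SCH772984. Of 63 tested members 46 fell and 3 rose, EEF1A2, EIF4A2 and EIF2D, and 14 did not pass the test (edgeR's quasi-likelihood test, Benjamini-Hochberg adjusted p under 0.05 over all 13834 genes tested). Over all genes tested, 35.5% were called lower and 37.2% higher, against 73.0% of the members called lower. The median log2 fold change of the members was -0.63, with 0.03 over all genes tested and -0.02 over the protein-coding genes tested. Scaling by library size alone moved the median of all genes by 0.17 and left 42 members lower and 7 higher. With that scaling 28.3% of all genes tested were called lower and 45.1% higher. Without the members that overlap another gene, or share 50-base stretches with one, over 25% or more, 40 of 55 were lower and 3 higher, with a median of -0.63. Across these 55 members the change had little relation to the level with DMSO, with a Pearson correlation of -0.133 and a Spearman correlation of -0.146 across genes, which share libraries and are not replicates.

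**Figure D2:**
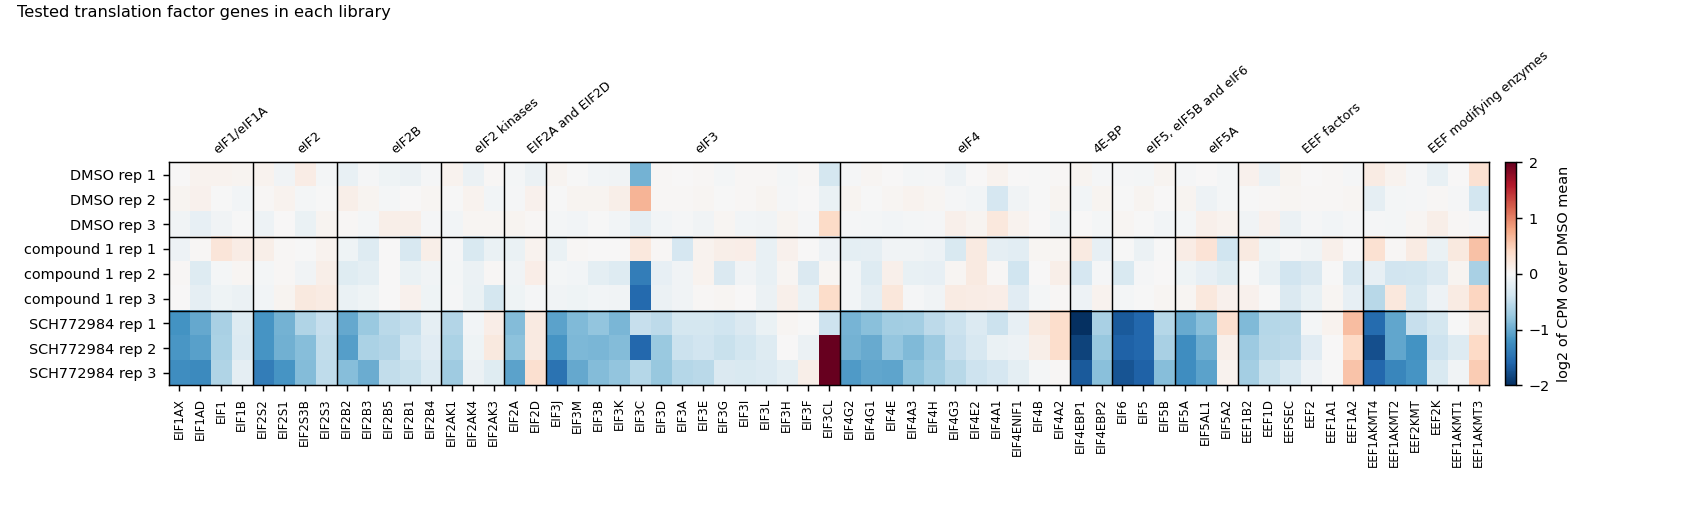
Level of the 63 tested members (columns, by group) in each of the 9 libraries (rows) as the log2 of its CPM over the mean of DMSO, with 0.5 CPM added to both and colours ending at -2 and 2. The 3 SCH772984 libraries are blue over most columns, the compound 1 libraries stay near the DMSO libraries, and EIF3C and EIF3CL vary between libraries of 1 treatment.

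The 4E-BPs, which hold eIF4E off the cap-binding complex, were among the genes that fell. EIF4EBP1 was at 114.2, 106.1 and 110.4 TMM-normalised CPM in the DMSO libraries, at 125.2, 87.7 and 103.1 with compound 1 and at 24.7, 30.2 and 34.0 with SCH772984. The SCH772984 libraries lay well below all others. It fell to 26.9% of DMSO, a log2 fold change of -1.90 ± 0.09 (SE, edgeR adjusted p = 5.52e-23), the largest fall of any tested member. EIF4EBP2 was at 158.7, 167.7 and 156.6 CPM with DMSO and at 103.0, 94.7 and 90.2 with SCH772984, without overlap, and changed by -0.75 ± 0.07 (edgeR adjusted p = 1.84e-13).

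Of the 13 eIF4 members 11 were tested, 8 fell, EIF4A2 rose, and EIF4B, a cofactor of the helicase, and EIF4ENIF1, an eIF4E transporter, were not called. EIF4B was called higher with library size alone (0.26), without genes under 10 counts in any library (0.17), over coding genes alone (0.14) and without SCH772984 replicate 3 (0.14). EIF4E itself was at 62.4, 63.8 and 59.7 CPM with DMSO and at 38.2, 36.2 and 29.5 with SCH772984, which is 55.5% of DMSO (log2 fold change -0.85 ± 0.09, edgeR adjusted p = 1.4e-11). EIF4G1 was at 1779, 1728 and 1688 CPM with DMSO and at 966.8, 858.3 and 842.4 with SCH772984, a change of -0.97 ± 0.06 (edgeR adjusted p = 1.08e-18). For both genes every SCH772984 library was below every DMSO library. EIF4G2, an eIF4G relative that lacks the eIF4E-binding part, had the largest fall of the eIF4 genes, from 1048, 1108 and 1048 CPM to 559.5, 554.3 and 487.7 (-1.01 ± 0.06, edgeR adjusted p = 3.27e-19). EIF4G3, the close relative of EIF4G1, went from 121.4, 127.6 and 139.7 CPM to 96.5, 93.7 and 87.6 (-0.49 ± 0.07, edgeR adjusted p = 3.89e-08). Again the treatments were apart for both genes. EIF4E2, a cap-binding repressor, went from 62.2, 59.5 and 64.0 CPM to 51.3, 49.3 and 46.25, also without overlap (-0.35 ± 0.08, edgeR adjusted p = 0.000166), and whether its fall differs from that of EIF4E was not tested.

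The helicase genes gave 1 rise and 1 fall at the edge of the threshold. EIF4A2 was at 512.4, 522.7 and 478.9 CPM with DMSO and at 643.4, 642.1 and 513.2 with SCH772984. The third SCH772984 library lay within the range of DMSO, and the rise was 0.24 ± 0.07 on the log2 scale (edgeR adjusted p = 0.00209). EIF4A1 had only 109 to 179 counts per library, and 48.6% of its exonic bases at chr17:7572706-7579005 overlap another annotated gene, mainly AC016876.2. How reads in more than 1 gene were treated is not given, so its level is uncertain. Its values of 16.1, 12.04 and 17.95 CPM with DMSO and 11.22, 13.93 and 12.02 with SCH772984 overlapped, and its call (log2 fold change -0.32 ± 0.15, edgeR adjusted p = 0.0496) was lost in 9 of 14 refits with another setting or without a library, including DESeq2 (adjusted p = 0.0927). EIF4A3, the eIF4A relative of the exon junction complex, changed by -0.80 ± 0.06.

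All 9 tested genes of eIF2 and eIF2B fell. In eIF2, which carries the initiator tRNA, the alpha subunit gene EIF2S1 was at 212.2, 233.2 and 223.1 CPM with DMSO and at 115.3, 113.7 and 98.5 with SCH772984 (log2 fold change -1.04 ± 0.07, edgeR adjusted p = 4.59e-18). The beta subunit gene EIF2S2 was at 298.9, 289.5 and 265.1 CPM with DMSO and at 125.1, 125.2 and 108.6 with SCH772984 (-1.26 ± 0.07, edgeR adjusted p = 3.77e-21). Neither gene had overlapping libraries. The gamma subunit gene EIF2S3 changed by -0.49 ± 0.06, and its copy EIF2S3B, which shares 26.8% of its 50-base stretches with genes elsewhere, by -0.84 ± 0.19. In eIF2B, the complex that reloads eIF2 with GTP, log2 fold changes ran from -0.23 for EIF2B4 to -1.01 for EIF2B2, with a median of -0.55. EIF2B2 was at 29.6, 35.7 and 33.3 CPM with DMSO and at 15.96, 15.02 and 17.92 with SCH772984 (edgeR adjusted p = 6.85e-11), and the 2 ranges were apart. EIF2B4 was no longer called with library size alone or when genes with under 10 counts in any library were dropped.

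Of the kinases that phosphorylate eIF2, only the heme-regulated EIF2AK1 passed the test. It was at 263.4, 247.8 and 239.8 CPM with DMSO and at 166.5, 160.9 and 152.3 with SCH772984, without overlap (-0.65 ± 0.06, edgeR adjusted p = 1.64e-12). EIF2AK3, the kinase of the endoplasmic reticulum stress response, had a log2 fold change of 0.03 with a 95% interval from -0.24 to 0.30. EIF2AK4, the kinase that responds to uncharged tRNA, had one of -0.09 with an interval from -0.23 to 0.06. For both the DMSO and SCH772984 libraries overlapped.

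EIF2A and EIF2D, factors that can bring initiator tRNA to the ribosome apart from eIF2, went in opposite directions. EIF2A was at 76.9, 78.4 and 82.5 CPM with DMSO and at 43.4, 44.6 and 37.6 with SCH772984 (-0.93 ± 0.08, edgeR adjusted p = 5.39e-14). EIF2D was at 47.2, 54.6 and 52.0 CPM with DMSO and at 58.1, 57.9 and 63.8 with SCH772984 (0.22 ± 0.08, edgeR adjusted p = 0.0136). The libraries of each gene did not overlap between the treatments. The rise of EIF2D no longer passed without DMSO replicate 1 (0.15, adjusted p = 0.171), without SCH772984 replicate 3 (0.17, adjusted p = 0.0598) or with no filter on low counts.

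Among the 4 tested members of eIF1 and eIF1A, which hold the ribosome in its scanning state, 3 fell. EIF1AX was at 324.9, 334.4 and 305.7 CPM with DMSO and at 139.5, 143.3 and 135.5 with SCH772984 (-1.21 ± 0.06, edgeR adjusted p = 1.11e-21). EIF1 was at 426.8, 405.8 and 387.5 CPM with DMSO and at 259.7, 262.0 and 267.5 with SCH772984 (-0.63 ± 0.06, edgeR adjusted p = 7.51e-13). Its paralogue EIF1B was at 15.9, 14.7 and 15.2 CPM with DMSO and at 12.72, 12.49 and 13.36 with SCH772984, also without overlap, but did not pass the test (-0.25 ± 0.14, edgeR adjusted p = 0.0914). EIF1AD, named for its eIF1A-like domain, changed by -1.17 ± 0.13.

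The subunits of eIF3 were uneven in how far they fell. Of 14 tested genes 10 were lower and none higher, with a median of -0.44. EIF3J, the loosely attached subunit, was at 148.4, 141.9 and 138.4 CPM with DMSO and at 68.1, 62.8 and 51.2 with SCH772984, the largest fall in the complex (-1.25 ± 0.08, edgeR adjusted p = 2.19e-17). EIF3M, EIF3B and EIF3K followed at -0.94, -0.86 and -0.86, and EIF3D changed by -0.68. EIF3A, EIF3E, EIF3G and EIF3I lay between -0.33 and -0.45, and EIF3L at -0.23, with 51.8% of its exonic bases inside other genes. The call of EIF3L was lost with library size alone (-0.05, edgeR adjusted p = 0.498) and when genes with under 10 counts in any library were dropped (adjusted p = 0.0516). EIF3F (0.00, 95% interval from -0.15 to 0.15) and EIF3H (-0.05, from -0.19 to 0.09) were not called, and for both the treatments overlapped, while EIF3F was called higher with library size alone (0.17, edgeR adjusted p = 0.0279). EIF3C and EIF3CL share 45.4% and 97.2% of their 50-base stretches with genes elsewhere, so reads can be split between them. EIF3C ran from 267 to 1196 counts and EIF3CL from 40 to 508, within treatments as well as between them, and neither was called in edgeR's fit of the 2 treatments. EIF3CL was called higher by DESeq2 (2.15, adjusted p = 0.0203), in edgeR's fit of all 9 libraries (2.17, adjusted p = 0.0478) and without SCH772984 replicate 1 (2.65, edgeR adjusted p = 6.46e-19). Without this pair 10 of 12 eIF3 genes were lower, and the median was again -0.44.

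EIF5, EIF5B and EIF6, which act at the end of initiation, all fell, with a median of -1.59, the lowest of the groups. EIF6, which keeps the large subunit from joining early, was at 148.8, 151.6 and 155.4 CPM with DMSO and at 47.1, 49.4 and 45.5 with SCH772984, which is 31.0% of DMSO (-1.69 ± 0.07, edgeR adjusted p = 6.41e-25). EIF5, which triggers GTP hydrolysis on eIF2, changed by -1.59 ± 0.06, and EIF5B, which joins the subunits, by -0.69 ± 0.07. The libraries of all 3 genes were apart. EIF5A, which eases peptide bond formation at difficult sequences, was at 1263, 1326 and 1246 CPM with DMSO and at 636.0, 538.2 and 542.3 with SCH772984 (-1.17 ± 0.06, edgeR adjusted p = 5.71e-21). Its paralogue EIF5A2 was at 17.9, 17.9 and 19.4 CPM with DMSO and at 23.2, 19.7 and 19.3 with SCH772984, which overlapped (0.16 ± 0.12, edgeR adjusted p = 0.219), and it was called higher with library size alone (0.34).

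The elongation factors were divided. EEF1A1, the main carrier of aminoacyl-tRNAs and the most abundant member, was at 10970, 10980 and 10410 CPM with DMSO and at 11360, 10860 and 10780 with SCH772984. The values overlapped, and the log2 fold change of 0.02 had a 95% interval from -0.10 to 0.14, though with library size alone it was called higher (0.20). EEF2, the translocase, was at 5256, 5274 and 5102 CPM with DMSO and at 5099, 4466 and 4879 with SCH772984, just below DMSO in every library, and its change of -0.12 ± 0.06 did not pass (edgeR adjusted p = 0.0721), although it did with DESeq2 (adjusted p = 0.0469), with no filter on low counts, and without SCH772984 replicate 1 (-0.18) or replicate 3 (-0.13). With library size alone its value turned to 0.05, which was not called. EEF1A2, the eEF1A form typical of muscle and neurons, rose. It was at 505.3, 528.3 and 500.7 CPM with DMSO and at 780.7, 677.1 and 758.2 with SCH772984, all above DMSO (0.52 ± 0.06, edgeR adjusted p = 2.21e-10), and was called higher in all 14 refits with another setting or without a library.

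EEF1B2, a subunit of the exchange complex that reloads eEF1A, went the other way, from 373.6, 351.5 and 336.2 CPM with DMSO to 190.6, 213.5 and 221.8 with SCH772984 (-0.77 ± 0.06, edgeR adjusted p = 1.62e-14). EEF1D of the same complex changed by -0.53 ± 0.07 and EEFSEC, which delivers selenocysteine, by -0.47 ± 0.10. The 13 EEF genes gave 12 tested, of which 7 were lower and 1 higher with a median of -0.42, and the EIF genes 51 tested, of which 39 were lower and 2 higher with a median of -0.66. Whether the EIF and EEF genes differ was not tested.

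Among the enzymes that modify elongation factors, 4 of 6 fell. EEF1AKMT4, a methyltransferase named for eEF1A lysines, was at 24.8, 19.4 and 21.7 CPM with DMSO and at 7.23, 6.16 and 7.05 with SCH772984 (-1.69 ± 0.15, edgeR adjusted p = 4.03e-14). The libraries were far apart, and 46.8% of its exonic bases lie inside other genes. EEF1AKMT2 changed by -1.22, EEF2KMT, the eEF2 methyltransferase, by -0.96 and EEF2K, the kinase that inhibits eEF2, by -0.37, a call that was lost with library size alone. EEF1AKMT1 and EEF1AKMT3 were not called.

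**Figure D3:**
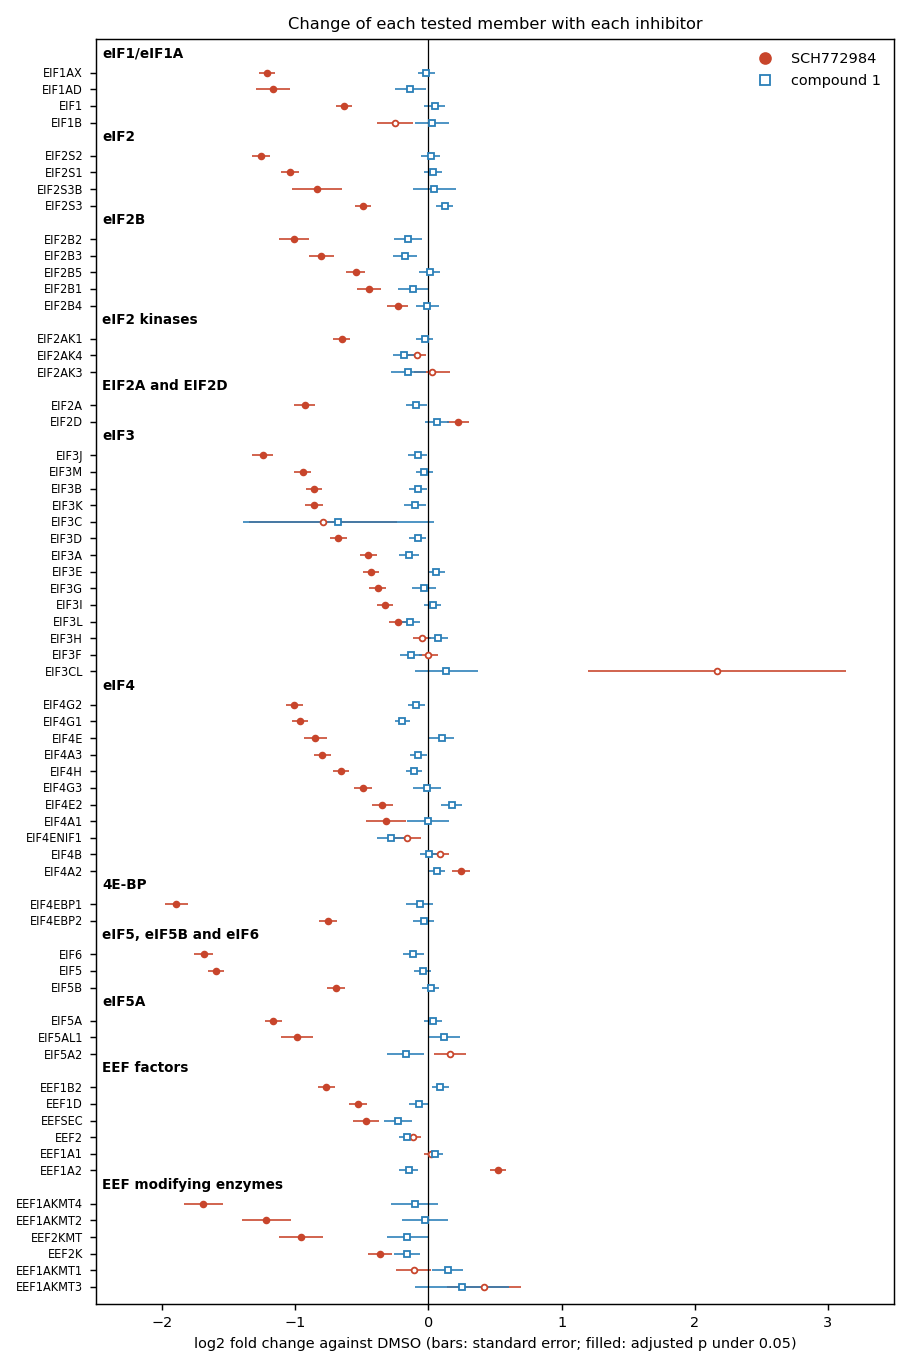
The log2 fold change against DMSO of the 63 tested members for SCH772984 (red circles) and compound 1 (blue squares), with bars for the standard error and filled symbols where edgeR's adjusted p was under 0.05. With SCH772984 46 members are filled to the left of 0 and 3 to the right, and no compound 1 symbol is filled. Both comparisons use the same DMSO libraries.

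The members were also described by how their transcripts begin. Of the 13 with a pyrimidine start, 7 were lower, 2 higher and 4 not called, with a median of -0.49. Of the 36 tested members with an entry and another start, 30 were lower, none higher and 6 not called, with a median of -0.77. Both genes in this set that rose, EIF4A2 and EIF2D, have a pyrimidine start, and so do EEF1A1, EEF2, EIF3F and EIF4B, printed above. EEF1A2, the other member that rose, has no entry in the table. Over the protein-coding genes tested that have an entry, the medians were -0.04 with a pyrimidine start and -0.03 without, and 38.3% and 39.6% were called lower. The difference between the start types was not tested.

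**Figure D4:**
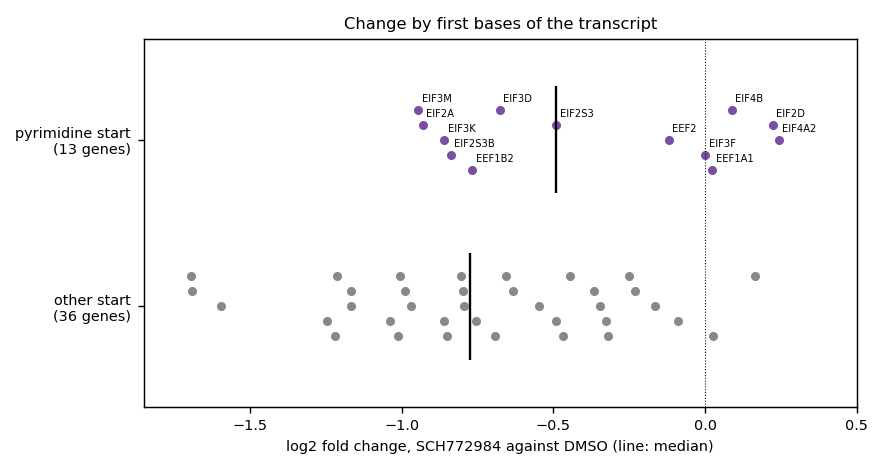
The log2 fold change with SCH772984 of the 49 tested members with a RefSeq start entry, split by a pyrimidine start (13 genes, named) or another start (36 genes), each point 1 gene and the line the median of -0.49 or -0.77. Vertical offsets within a row only separate the points.

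The same was done for CACGTG. Of the 13 tested members with it 9 were lower and none higher, with a median of -0.66, and of the 36 without it 28 were lower and 2 higher, with a median of -0.72. Over the protein-coding genes tested that have an entry, the medians were -0.09 with CACGTG and -0.02 without, and 42.8% and 39.0% were called lower. This difference was not tested either.

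Ratios of counts within a library do not depend on scaling. EIF4EBP1 per EIF4E was 1.83, 1.66 and 1.85 with DMSO and 0.646, 0.834 and 1.15 with SCH772984, so every SCH772984 library lay lower. EIF4EBP2 per EIF4E was 2.54, 2.63 and 2.63 with DMSO and 2.69, 2.62 and 3.05 with SCH772984, which overlapped. With compound 1 this ratio was 2.41, 2.38 and 2.32, below DMSO. EIF5A per EIF5A2 was 70.4, 74.1 and 64.3 with DMSO and 27.4, 27.4 and 28.0 with SCH772984. EIF4G1 per EIF4G3 was 14.7, 13.5 and 12.1 with DMSO and 10.0, 9.16 and 9.62 with SCH772984. EEF1A1 per EEF1A2 was 21.7, 20.8 and 20.8 with DMSO, 14.6, 16.0 and 14.2 with SCH772984 and 22.6, 26.2 and 24.3 with compound 1. For EIF5A and EIF4G1 the ratios with SCH772984 all lay below those with DMSO, and for EEF1A1 those with SCH772984 lay below and those with compound 1 above. EIF4A1 per EIF4A2 with either inhibitor overlapped DMSO. As 48.6% of the exonic bases of EIF4A1 lie in other genes, its counts and so this ratio are uncertain. The exact permutation test (two-sided, 3 against 3) cannot give a p below 0.10, which was reached wherever the libraries did not overlap, and these p-values were 0.2 after Benjamini-Hochberg adjustment over 12 tests.

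**Figure D5:**
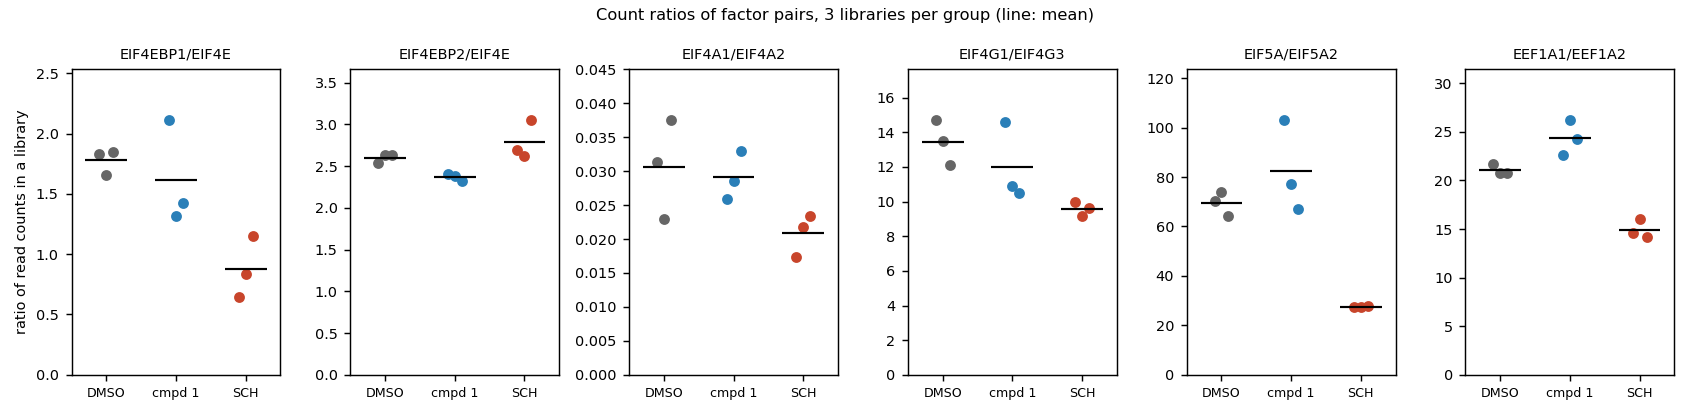
Ratio of read counts of 6 gene pairs in each library, for DMSO (grey), compound 1 (blue) and SCH772984 (red), with lines for the means of 3 libraries and axes from 0. The SCH772984 points lie below all DMSO points for EIF4EBP1/EIF4E, EIF4G1/EIF4G3, EIF5A/EIF5A2 and EEF1A1/EEF1A2, and overlap them for the other pairs.

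With compound 1 no member passed the test. In edgeR's fit 0 of 63 were called lower and 0 higher at an adjusted p under 0.05, against 0.374% and 0.49% of the 12849 genes tested. DESeq2 also called 0 members, against 0.949% of the same genes lower and 0.911% higher. At an unadjusted p under 0.05 there were 3 lower, EIF4G1, EIF4ENIF1 and EEF2, and 1 higher, EIF4E2, while 7.69% of all genes were lower and 7.35% higher. The median log2 fold change of the members was -0.04 and that of all genes 0.00. The 95% intervals of 62 members lay within a 2-fold change in either direction, EIF3C being the exception, and those of 59 within 0.5 on the log2 scale.

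The 4 members with an unadjusted p under 0.05 were nearest to a call with compound 1, and they were picked by these same values. EIF4G1 was at 1534, 1455 and 1534 CPM, below the 1688 to 1779 of DMSO, with a log2 fold change of -0.20 ± 0.06 (edgeR adjusted p = 0.116). EIF4ENIF1 was at 23.7, 20.9 and 23.4 CPM, below the 26.2 to 28.9 of DMSO (-0.28 ± 0.11, edgeR adjusted p = 0.216). For both genes the libraries did not overlap. EEF2 was at 4973, 4258 and 4713 CPM, also below DMSO in every library (-0.16 ± 0.06, edgeR adjusted p = 0.225). EIF4E2 was at 70.5, 70.1 and 68.5 CPM, above the 59.5 to 64.0 of DMSO (0.17 ± 0.08, edgeR adjusted p = 0.324). In the fit without compound 1 replicate 1, 6.1% of the 13084 genes tested were called lower and 3.46% higher. The 4 members called lower there were EIF4G1 (-0.21, edgeR adjusted p = 0.0023), EEF2 (-0.21, adjusted p = 0.00191), EEF1A2 (-0.23, adjusted p = 0.00202) and EEFSEC (-0.34, adjusted p = 0.0209). EIF4EBP1, EIF4E and EIF2S1 had libraries that overlapped DMSO.

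Set directly against compound 1, SCH772984 gave 41 of 63 members lower and 2 higher, EEF1A2 and EIF5A2, with 32.6% of all 13863 genes tested called lower and 33.7% higher. With library size alone the split was 38 lower and 8 higher, with 26.9% of all genes tested called lower and 39.9% higher. The median log2 difference was -0.55, with 0.03 over all genes. EIF4EBP1 differed by -1.82 ± 0.13 and EEF1A2 by 0.68 ± 0.09 (edgeR adjusted p = 9.67e-11 and 9.99e-07). EIF5A2 differed by 0.34 ± 0.15 (edgeR adjusted p = 0.0427), with overlapping libraries. Its call was lost in 7 of 14 refits, which were DESeq2, no filter, the replicate block, and the fits without SCH772984 replicate 1 or 2 or compound 1 replicate 1 or 2. EIF4A1, EIF4A2 and EIF2D were not called in this fit, but EIF4A2 was called higher in 5 of the 14 refits, EIF2D higher in 2 and EIF4A1 lower in 1. It shares the SCH772984 libraries with the comparison against DMSO, so its calls are no second set of evidence.

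Other genes of protein synthesis were taken from a list by role. Of 45 genes 44 were tested with SCH772984, 27 were lower and 8 higher, with a median of -0.36. Of all genes tested 35.5% were called lower and 37.2% higher, against which each count here is to be read. Of 13 tested initiation cofactors 11 were lower and 1 higher, from GCN1, the activator of EIF2AK4, at -0.95 ± 0.06 to PDCD4, an inhibitor of eIF4A, at 1.44 ± 0.09. Of 7 tested genes that signal to eIF2 and eIF4, 1 was lower, PPP1R15B, a phosphatase subunit for eIF2, at -0.37 ± 0.07, and 3 were higher. MKNK2, which phosphorylates eIF4E, rose the most, by 2.07 ± 0.06 on the log2 scale, from 2153 to 2572 counts with DMSO to 11657 to 16298 with SCH772984. MKNK2 and PDCD4, both regulators of eIF4F, were the genes with the largest rises among the 44.

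Of 6 termination and recycling factors 5 were lower, led by ABCE1, which splits ribosomes, at -1.09 ± 0.07. Of 9 genes that make hypusine, the modified residue of eIF5A, or diphthamide, that of eEF2, 4 were lower (44.4%) and 2 higher, from DPH2 at -1.44 ± 0.08 to DPH6 at 0.83 ± 0.09. Of 9 mitochondrial translation factors 6 were lower and 2 higher, from MTIF2, the mitochondrial initiation factor, at -1.78 ± 0.09 to MTRF1, a release factor, at 0.56 ± 0.18. With compound 1 none of the 44 was called by edgeR, and at an unadjusted p under 0.05 there were 5 lower and 1 higher, with 7.69% and 7.35% of all genes at that threshold and 0.374% and 0.49% after adjustment.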

How the data were processed

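RNA of 9 MIA PaCa-2 samples was sequenced. The authors deposited raw read counts per gene, whole numbers with no normalization, as 1 table of 58735 genes. The submitters' processing notes name HISAT2 2.0.5, featureCounts 1.5.0-p3 and hg38. The strand setting is not given in the sources used here. All gene coordinates matched GENCODE release 29. Libraries were grouped by their labels.

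Each pair of treatments was fitted alone with edgeR 4.0.16 in R 4.3.3 (TMM, filterByExpr with a minimum count of 10 and total of 15, robust quasi-likelihood test). Calls used a Benjamini-Hochberg adjusted p under 0.05 over all genes tested. Standard errors are the absolute log2 fold change over the root of the F statistic. CPM values are TMM-normalised. Within-library ratios were compared by two-sided exact permutation tests, leaving out pairs with under 10 counts in a library. Promoter sequences are RefSeq's. On data simulated from the SCH772984 and DMSO libraries, 83.2% of 191 genes changed by 1 on the log2 scale were called and 0.0974% of unchanged genes, of 13532 tested. Only 200 genes were drawn to change, equally up and down, whereas the real fit called 35.5% of genes lower and 37.2% higher. The simulation therefore cannot show how scaling or error rates hold with so many changed genes.

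The members, the lists and the tests were chosen with earlier results of these data known. Values per library were given for the 4E-BPs, for EIF2S1, EIF4E, EIF4A1, EIF4G1, EEF1A1 and EEF2, for the called member with the largest fall and rise of each group with SCH772984, for members called with compound 1 and for paralogue pairs. Members near a call with compound 1 were added after their values were seen. The description without members that overlap other genes or share sequence was also added.

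The alternatives tried were, for scaling, library size alone or RLE factors, for the filter, none or 10 counts in each library, a shared fit of all 9 libraries, a block for replicate number, a table of coding genes alone, an unadjusted p, a 2-fold minimum, DESeq2 1.42.0, 0.5 added to each count of a ratio, and leaving out each library. Same-numbered libraries of different treatments had correlated deviations of -0.102 to 0.155, so the numbers were not taken to pair them.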

Additional observations from a re-analysis of the deposited data

How the results depend on the processing

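Of 96 recomputed counts of members 82 stayed within 1.5 times the value given, and of 42 recomputed medians 31 moved by less than the spread between replicates. No called result reversed, though values that were not called could change sign, as EEF2 with SCH772984 did with library size alone, and the cause of the shifts was not tested except where the setting itself requires more.
With SCH772984 against DMSO, requiring a 2-fold change left 13 members lower and 0 higher, and library size alone gave 7 higher. In the fit with library size alone 45.1% of all genes tested were called higher. The median of the members was -0.46 with library size alone, -0.57 with no filter, -0.55 when genes with under 10 counts in any library were dropped, -0.59 over coding genes alone, and -0.69 to -0.53 when single libraries were left out.
With compound 1 against DMSO, 3 members were lower and 1 higher at an unadjusted p, and leaving out single libraries gave 0 to 4 lower, the 4 being without compound 1 replicate 1, where 6.1% of all genes tested were called lower. The median then ran from -0.0716 to -0.0339.
For SCH772984 against compound 1, a 2-fold change left 12 lower and 0 higher, and there were 8 higher with library size alone, 1 with no filter, 4 with at least 10 counts in each library and 1 to 3 when single libraries were left out. Of all genes tested, 39.9% were called higher with library size alone and 17.5% with no filter. With at least 10 counts in each library it was 34.4%, and 30.0% to 33.5% with single libraries left out. The median of the members was -0.41 with library size alone, -0.48 with at least 10 counts in each library and -0.60 to -0.51 when single libraries were left out.
With the replicate number as a block, SCH772984 gave 46 members lower and 3 higher with a median of -0.63, compound 1 gave 0 and 0 with -0.04, and the direct comparison 41 and 1 with -0.55, EIF5A2 being the call lost.
Of 378 recomputed values of 27 named members with SCH772984, 360 kept their side of the threshold, 12 lost it (9 for EIF4A1, 3 for EIF2D) and 6 gained it (4 for EEF2, 1 each for EEF1A1 and EIF5A2). With compound 1, 375 of 378 kept it and 3 gained it. The 84 ratios recomputed all moved by less than the spread between replicates.
With 3 libraries per treatment of 1 cell line, the exact tests cannot pass 0.05. Genes with few counts, overlapping genes and genes with copies are the least certain, and counts cannot show protein amount or translation.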
